A study of Mus musculus with 21 samples.

Results

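Genes of the cell cycle and of DNA replication were followed in 3T3-L1 adipocytes treated with a glucocorticoid or an inflammatory cytokine. The 40 genes were chosen by name and fall into 4 role groups: 10 genes of DNA replication, 21 of mitosis, 5 cyclins of the G1 phase and 4 inhibitors of the cyclin-dependent kinases (CDKs). They stand among 18194 genes with a probe set assigned to a single gene symbol, and each gene was represented by its probe set with the highest mean over the 21 arrays. Such a probe set was found for 39 of the 40 genes, and Ccnb1 is not analysed here. Of these, 32 were tested, because their level passed 5.34, the median of the deposited log2 values, on at least 3 arrays. The other members (Tyms, Bub1, Aurkb, Cenpe, Kif11, Kif20a and Cdkn1c) were too dim to be tested.

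3T3-L1 is a clonal line of mouse preadipocytes, which take on the form of fat cells when they are induced to differentiate. Total RNA of cells differentiated for 14 days was measured on 21 Affymetrix arrays, 3 in each of 7 groups. One group was untreated and harvested at 0 h (control), 3 groups had 20 nM dexamethasone (Dex), a synthetic glucocorticoid, for 2 h, 24 h or 6 d, and 3 groups had the cytokine tumour necrosis factor alpha (TNF) for the same times. The TNF dose and the vehicle are not given in the sources used here. The design asks how both agents change expression over time as insulin resistance develops. The only control group was harvested at 0 h, so treatment and time in culture cannot be told apart in comparisons with it. The labels call the replicates biological but name no separate cultures, so the p-values measure the spread between these samples.

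All values are log2 expression levels as deposited, and a difference of 1 is a 2-fold change. Differences were tested with limma over all 12156 genes that passed the filter, and a gene was called when its Benjamini-Hochberg adjusted p was below 0.05. Because levels of different probe sets cannot be compared, each gene is compared only with itself. The adipocyte identity of the cells was checked with markers. Adipoq, which encodes adiponectin, lay between 14.16 and 14.88 on all arrays, close to the highest value of the data, 15.06, whereas Lep (leptin) was dim, between 4.08 and 4.78. The leukocyte gene Ptprc lay between 3.43 and 4.48 and the macrophage gene Adgre1 between 4.25 and 5.32, both below the filter on every array. Other macrophage markers were brighter, and 3 of the 6 on the array passed the filter. Csf1r had group means from 6.20 to 6.96, and Cd68 had a mean of 6.78 at TNF 24 h. The presence of such cells was not tested.

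Array 2 of TNF 6 d stood apart. Its lowest correlation with an array of its own group was 0.842, its probe sets spread with an SD of 2.04, where that of the others was 2.44 to 2.51, and its control probe sets differed by 2 between the 3′ and the 5′ ends of transcripts, a sign of RNA quality. Array 2 of Dex 6 d had the next highest 3′ to 5′ difference, 0.777, followed by array 2 of TNF 2 h with 0.736 and array 3 of TNF 24 h with 0.683, and the remaining arrays had at most 0.283. The array of TNF 6 d also widened the spread of the common model, so counts are given for all 21 arrays and again for 20 arrays without it, with the 20-array value of a named gene where a call over 21 arrays is lost or its size differs much. Each standard error (SE) rests on 1 spread shared by the 7 groups, so over 21 arrays it is not the spread within TNF 6 d. The member Cdkn1b, for example, had an SD of 1.55 at TNF 6 d and 0.06 in control. The part of RNA quality in the results was not tested.

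A dividing cell passes from G1, in which D-type and E-type cyclins activate CDKs, through S phase, in which the MCM helicase unwinds DNA for copying, to mitosis, in which the spindle, its motors and its checkpoint separate the chromosomes. Genes of S phase are classically driven by E2F factors, and genes of G2 and mitosis by the MuvB complex acting on promoter elements called CHR. CDK inhibitors such as p21 hold the cycle back. 3T3-L1 cells divide early in differentiation and then leave the cycle, so mature cultures are largely quiescent but may keep some undifferentiated cells.

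The promoters of genes on which the results turn are shown to let the replication and mitosis genes be compared by these elements. Each is a window of 250 bases before to 50 bases after a RefSeq transcription start (build GRCm38.p6), written 5′ to 3′ on the strand of the gene, and capitals mark the E2F, CHR and CCAAT letters defined below. Mcm5 is the replication member and Birc5 the mitosis member called in the most comparisons with control. Cdkn1a, which encodes p21, is the CDK inhibitor with the largest called change, and both of its listed starts are shown. Top2a was added after its values were seen.
Mcm5, chr8:75109259-75109558, plus strand: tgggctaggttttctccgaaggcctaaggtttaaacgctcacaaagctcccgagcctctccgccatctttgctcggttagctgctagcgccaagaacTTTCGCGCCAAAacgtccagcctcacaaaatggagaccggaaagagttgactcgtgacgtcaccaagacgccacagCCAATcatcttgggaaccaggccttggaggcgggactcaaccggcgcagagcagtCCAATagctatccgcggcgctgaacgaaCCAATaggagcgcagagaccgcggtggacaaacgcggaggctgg
Top2a, chr11:99024140-99024439, minus strand: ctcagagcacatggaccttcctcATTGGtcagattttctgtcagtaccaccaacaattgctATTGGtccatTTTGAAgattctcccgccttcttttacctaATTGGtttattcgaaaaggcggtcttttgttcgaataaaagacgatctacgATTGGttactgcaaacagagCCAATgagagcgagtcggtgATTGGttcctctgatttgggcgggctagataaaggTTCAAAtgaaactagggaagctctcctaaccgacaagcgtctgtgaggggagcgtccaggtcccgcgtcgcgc
Birc5, chr11:117848987-117849286, plus strand: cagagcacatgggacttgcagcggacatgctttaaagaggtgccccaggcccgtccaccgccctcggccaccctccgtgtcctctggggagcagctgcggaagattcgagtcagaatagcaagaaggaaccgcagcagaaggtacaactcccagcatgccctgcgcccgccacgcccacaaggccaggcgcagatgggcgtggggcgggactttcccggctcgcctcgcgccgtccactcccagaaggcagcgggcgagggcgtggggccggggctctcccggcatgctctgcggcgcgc
Cdkn1a start 1, chr17:29090729-29091028, plus strand: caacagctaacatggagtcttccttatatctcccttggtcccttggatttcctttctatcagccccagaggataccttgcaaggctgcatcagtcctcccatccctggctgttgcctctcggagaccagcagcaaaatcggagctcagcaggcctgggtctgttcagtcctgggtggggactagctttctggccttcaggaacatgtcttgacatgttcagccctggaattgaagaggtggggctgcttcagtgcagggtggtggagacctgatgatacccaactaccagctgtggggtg
Cdkn1a start 2, chr17:29093519-29093818, plus strand: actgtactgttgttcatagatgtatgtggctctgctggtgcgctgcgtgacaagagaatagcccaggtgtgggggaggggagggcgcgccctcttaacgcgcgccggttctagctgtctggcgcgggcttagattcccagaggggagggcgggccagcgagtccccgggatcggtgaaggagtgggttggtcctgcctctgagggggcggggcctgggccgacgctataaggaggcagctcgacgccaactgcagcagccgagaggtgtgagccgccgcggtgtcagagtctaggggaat

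The motifs were searched on both strands as TTTCCCGC, TTTGGCGC or TTTCGCGC for E2F, TTTGAA for CHR and CCAAT for the CCAAT box, and the palindromic glucocorticoid response element was searched as well. In the Mcm5 window, TTTCGCGC and GCGCCAAA, which reads TTTGGCGC on the other strand, overlap and begin at positions -153 and -149 from the start. The Top2a window holds the CHR letters at positions -179 and -23, and CCAAT letters at 6 places. No searched letters occur in the windows of Birc5 and Cdkn1a, which says only that these letters are absent from these windows. The table of promoters held a window for 9 of 10 replication and 17 of 21 mitosis members. An E2F motif was present in 4 of the 9 replication genes (Mcm3, Mcm5, Mcm6 and Mcm7) and 1 of the 17 mitosis genes (Cdk1), against 2.12% of 27025 genes. The CHR letters were present in 12 of 17 mitosis genes and 1 of 9 replication genes (Mcm2), against 20.2% of all genes. CCAAT occurred in 8 of 9 replication and 15 of 17 mitosis genes, against 41.1% of all genes, and the glucocorticoid response element in no member's window. The form of the glucocorticoid response element that was searched occurs in only 3 of 27025 genes (0.0111%). Its absence from the members' windows was therefore likely in advance and says nothing about control by glucocorticoids. A match is a description of letters and not a measured binding site.

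As means over the chosen members, replication and mitosis genes were highest at different times of TNF. The mean level of the 10 replication genes, each taken relative to its control mean, was highest after 24 h of TNF, at 0.66 ± 0.06 (SD, n = 3), when the mean of the 20 mitosis genes was 0.10 ± 0.07. With all probe sets of each gene averaged, the replication mean at that time was 0.43. At 6 d of TNF the mitosis mean was 0.53 ± 0.14 and the replication mean was 0.10 ± 0.61. On the 2 arrays other than array 2 they were 0.61 ± 0.01 and 0.45 ± 0.06. The means of the 3 control arrays spread from -0.14 to 0.20 for replication and from -0.06 to 0.03 for mitosis. Every TNF 24 h array, at 0.68, 0.59 and 0.70, lay above control in replication. TNF 6 d arrays 1 and 3, at 0.60 and 0.62, lay above control in mitosis. Array 2 of TNF 6 d stood at 0.37 in mitosis and -0.60 in replication. It read high for some dim genes, such as Bub1 (7.01), and low for brighter ones, such as Cdk1 (6.17), so its place above control in mitosis is no separate support. These means describe chosen genes and carry no test.

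Under Dex the replication mean was 0.10 ± 0.06 at 2 h, 0.30 ± 0.08 at 24 h and 0.45 ± 0.35 at 6 d, and the mitosis mean was -0.06 ± 0.07, 0.11 ± 0.03 and 0.21 ± 0.42. The spread at 6 d came from 1 array: arrays 1, 2 and 3 had replication means of 0.26, 0.86 and 0.23 and mitosis means of -0.01, 0.70 and -0.05. Without array 2 the Dex 6 d means were 0.25 ± 0.02 for replication, just above the highest control array, and -0.03 ± 0.03 for mitosis, within the control range. After 2 h of TNF both means lay at control, at -0.00 ± 0.18 and -0.05 ± 0.14. The signs of the group means for TNF 24 h and TNF 6 d were the same after cyclic loess normalisation, with 0.33 for replication at TNF 6 d.

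**Figure D1:**
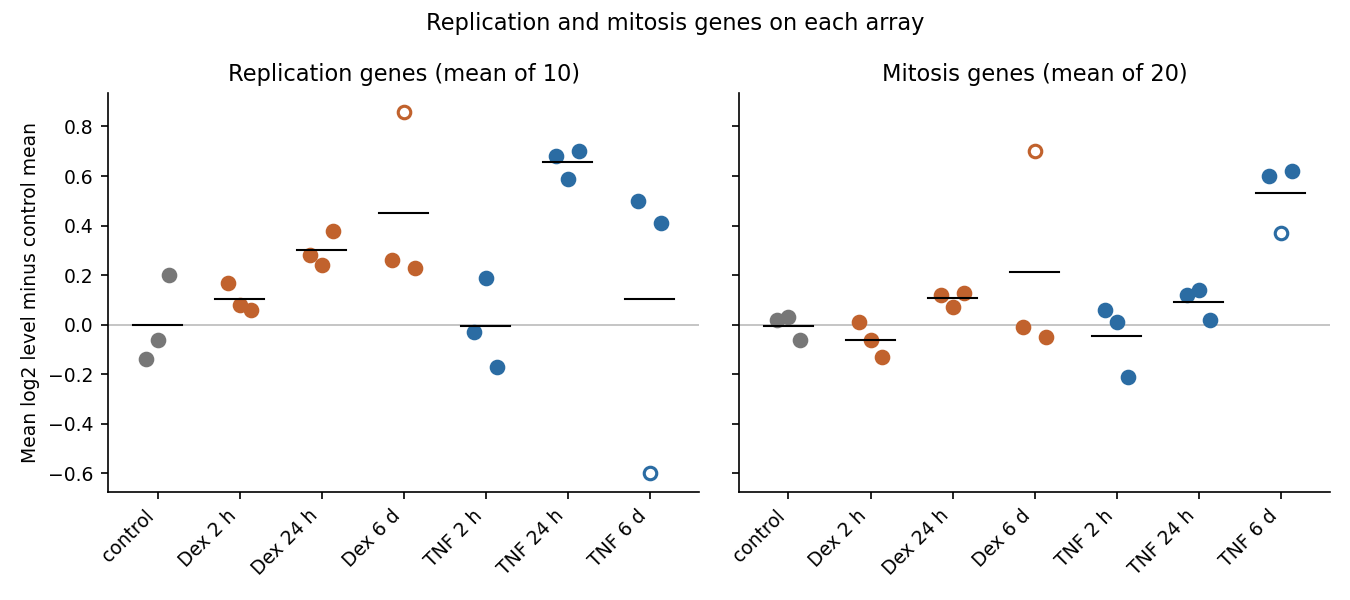
Mean log2 level minus control mean (vertical axis) of the 10 replication genes (left) and 20 mitosis genes (right) on each of the 21 arrays by group (horizontal axis), with a black line at the group mean and open circles for arrays 2 of Dex 6 d and TNF 6 d. The replication mean peaked at TNF 24 h (0.66) and the mitosis mean at TNF 6 d (0.53), and both open circles lie far from their group in the replication panel.

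Among the CDK inhibitors, Cdkn1a gave the clearest response. Its levels were 10.11, 10.07 and 9.70 in control, 12.24, 12.02 and 11.59 after 2 h of Dex, 11.47, 11.57 and 11.55 after 24 h, and 11.53, 11.53 and 11.43 after 6 d. After TNF they were 11.10, 11.38 and 10.68 at 2 h, 9.92, 9.82 and 10.37 at 24 h, and 9.34, 9.60 and 9.20 at 6 d. All 9 Dex arrays and the 3 TNF 2 h arrays lay above every control array, the TNF 24 h arrays overlapped control, and the TNF 6 d arrays lay below it.

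Cdkn1a rose by 1.99 ± 0.21 (SE) at 2 h of Dex, or 3.97-fold, and stayed up by 1.57 at 24 h and 1.54 at 6 d (limma adjusted p of 5.3e-06, 8.7e-05 and 5.5e-05). Under TNF it rose by 1.09 ± 0.21 at 2 h (adjusted p = 0.00255), differed by 0.08 at 24 h (adjusted p = 0.923) and by -0.58 at 6 d (adjusted p = 0.0643). With 20 arrays the decrease at TNF 6 d passed the test, at -0.69 ± 0.20 (adjusted p = 0.0159). A second probe set of Cdkn1a gave changes of 2.11, 1.63 and 1.31 under Dex and 0.90, 0.15 and -1.12 under TNF at the same times. With the mean of both probe sets, the TNF 2 h change missed the threshold (adjusted p = 0.0532).

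Cdkn1a was the only member called at 2 h of Dex, at 24 h of Dex and at 2 h of TNF, which is 1 of 32 members, or 3.12%. Over all genes tested 2.48%, 4.18% and 3.82% were called in these comparisons, and 1.66%, 2.06% and 2.95% were called higher, so the members' share was near the background at each. After cyclic loess the TNF 2 h calls were 1 higher and 1 lower, against 519 and 174 of 12156 genes. With 20 arrays 2, 2 and 5 members were called, against 7.12%, 13.2% and 10.7% of all genes. The replication and mitosis members had no call among the 21 arrays at these times.

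Cdkn1b, which encodes p27, an inhibitor of CDK2 complexes, moved later. Its levels were 8.66, 8.71 and 8.79 in control, 8.76, 8.42 and 8.47 at Dex 2 h, 9.23, 9.43 and 9.18 at Dex 24 h and 9.80, 9.75 and 9.50 at Dex 6 d. TNF arrays read 8.61, 9.13 and 8.60 at 2 h, 9.07, 9.49 and 9.11 at 24 h, and 9.19, 6.45 and 9.08 at 6 d, where the low value is array 2. All arrays of Dex 24 h, Dex 6 d and TNF 24 h lay above control. None of these changes was called over 21 arrays, with an SE of 0.46, against 0.15 with 20 arrays. With 20 arrays Cdkn1b rose by 0.56 at Dex 24 h (adjusted p = 0.0136), 0.96 at Dex 6 d (adjusted p = 5.7e-05) and 0.50 at TNF 24 h (adjusted p = 0.0166).

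Cdkn2c, which encodes p18, an inhibitor of CDK4 and CDK6, was lower in every treated array than in control. Control levels were 12.92, 12.89 and 12.94. Dex arrays read 12.55, 12.63 and 12.63 at 2 h, 12.67, 12.67 and 12.76 at 24 h, and 12.19, 12.11 and 12.40 at 6 d. TNF arrays read 12.54, 12.41 and 12.48 at 2 h, 12.07, 12.16 and 11.73 at 24 h, and 12.57, 11.07 and 12.58 at 6 d.

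Over 21 arrays Cdkn2c fell by 0.93 ± 0.26 at TNF 24 h (adjusted p = 0.0323) and by 0.84 ± 0.26 at TNF 6 d (adjusted p = 0.0401). Without array 2 it fell by 0.34 at TNF 6 d (adjusted p = 0.0259). With 20 arrays Cdkn2c also fell by 0.68 at Dex 6 d (adjusted p = 1.5e-05) and by 0.44 at TNF 2 h (adjusted p = 0.00275). Leaving out any control array ended the TNF calls (adjusted p of 0.0854 to 0.101), as did leaving out TNF 24 h array 1 (0.0702) or array 3 (0.156) at 24 h. Cdkn1c, the gene of p57, lay between 4.14 and 4.84 on all arrays and was not tested.

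Of the G1 cyclins, Ccnd1 (cyclin D1), which carries growth signals to CDK4 and CDK6, rose late under both agents. Control levels were 8.12, 8.45 and 8.50. Under Dex they were 8.21, 8.40 and 8.36 at 2 h, 8.44, 8.51 and 8.52 at 24 h, and 8.99, 9.54 and 9.03 at 6 d. Under TNF they were 8.76, 8.62 and 8.59 at 2 h, 9.55, 9.72 and 10.03 at 24 h, and 9.86, 9.03 and 9.71 at 6 d. All arrays of Dex 6 d, TNF 2 h, TNF 24 h and TNF 6 d lay above control.

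Ccnd1 rose by 1.41 ± 0.21 at TNF 24 h, or 2.66-fold (adjusted p = 1.3e-04), by 1.18 ± 0.21 at TNF 6 d (adjusted p = 0.0012) and by 0.83 ± 0.21 at Dex 6 d (adjusted p = 0.0161). The other probe sets of Ccnd1 gave 1.54 and 1.43 at TNF 24 h. With 20 arrays the TNF 6 d change was 1.43. Without array 2 of Dex 6 d the Dex 6 d change was 0.65, which missed the threshold with TNF 6 d array 2 in the fit (adjusted p = 0.107) and passed without it (adjusted p = 0.00209). It also missed without control array 1, at 0.71 (adjusted p = 0.0983).

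Ccne2 (cyclin E2), which with CDK2 starts S phase, differed in direction between the agents. Its levels were 6.81, 6.92 and 6.73 in control, 7.52, 7.61 and 7.35 at Dex 2 h, 7.38, 7.27 and 7.08 at Dex 24 h, and 7.34, 7.75 and 7.13 at Dex 6 d. After TNF they were 5.74, 6.73 and 6.02 at 2 h, 6.38, 6.53 and 5.98 at 24 h, and 5.83, 5.58 and 5.65 at 6 d. All 9 Dex arrays lay above every control array, and all 9 TNF arrays lay below every one. Against control, Ccne2 fell by 1.13 ± 0.21 at TNF 6 d (adjusted p = 0.00201), and fell by 1.08 with 20 arrays. The differences of 0.68 at Dex 2 h (adjusted p = 0.151), 0.59 at Dex 6 d (0.117) and -0.66 at TNF 2 h (0.128) were called with 20 arrays only (0.0467, 0.0396 and 0.0404).

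The remaining G1 cyclins were not called against control over 21 arrays. Ccnd3 (cyclin D3), which is expressed in differentiated fat cells, read 9.98, 9.91 and 9.94 in control and 9.54, 9.66 and 9.30 at TNF 24 h, without overlap. That change of -0.44 had an adjusted p of 0.36 over 21 arrays and 0.00553 with 20 arrays. Ccnd2 (cyclin D2) ranged from 12.72 to 13.62 and Ccne1 (cyclin E1) from 6.69 to 8.06 over all arrays. The Ccnd2 difference of -0.36 at Dex 6 d had an adjusted p of 0.0544 with 20 arrays.

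**Figure D2:**
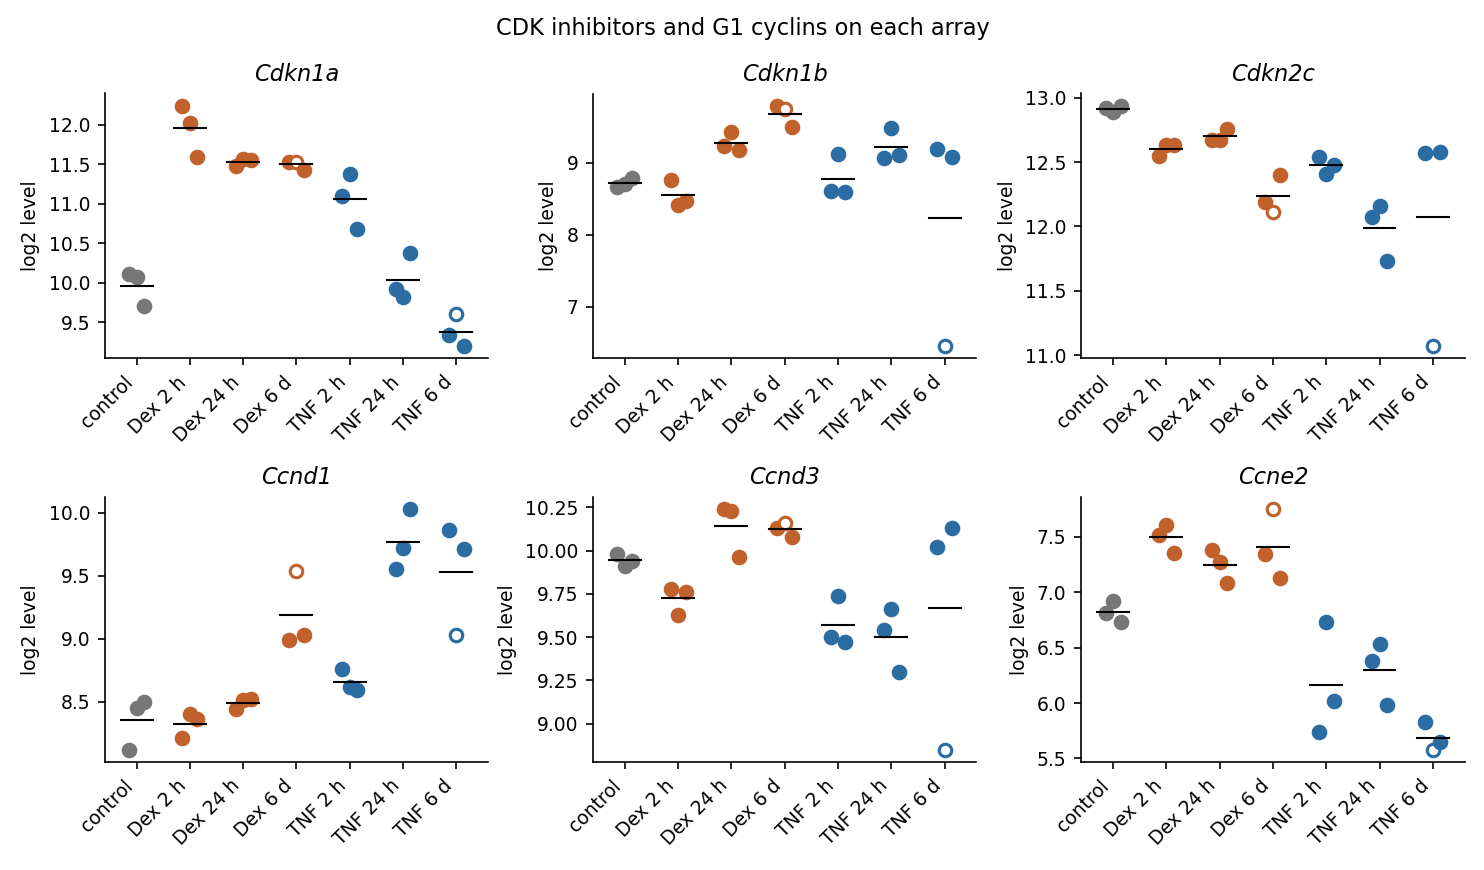
Log2 level (vertical axes, each with its own range) of 3 CDK inhibitors (top) and 3 G1 cyclins (bottom) on each array by group, with a black line at the group mean and open circles for arrays 2 of Dex 6 d and TNF 6 d. Cdkn1a is high in all Dex groups and at TNF 2 h, Ccnd1 is high at Dex 6 d and from TNF 24 h, and Ccne2 is above control in Dex and below it at TNF 6 d.

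At 24 h of TNF, 3 of the 9 replication genes tested were called higher and none lower, against 2 higher at Dex 6 d and 1 at TNF 6 d. With 20 arrays these were 6, 4 and 4 genes. In the TNF 24 h comparison 6 of 32 members were called (18.8%), 5 higher and 1 lower, against 8.69% of all genes (5.41% higher). Over 20 arrays these were 13 members (40.6%), 10 higher and 3 lower, against 25.6% of all genes (13.2% higher). The median change of the 9 replication genes was 0.61, with -0.03 over all genes tested. Of the MCM helicase subunits, Mcm3, Mcm5 and Mcm6 were called.

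Mcm5 read 4.80, 5.08 and 5.59 in control, 5.39, 5.61 and 5.31 at Dex 2 h, 5.67, 5.71 and 6.22 at Dex 24 h, and 5.75, 7.21 and 5.97 at Dex 6 d. After TNF it read 5.10, 5.78 and 5.15 at 2 h, 7.0, 6.75 and 7.47 at 24 h, and 6.74, 6.24 and 6.39 at 6 d. From 24 h on, the arrays of both agents lay above control, and those of TNF 24 h lay highest apart from array 2 of Dex 6 d. Mcm5 rose by 1.92 ± 0.31 at TNF 24 h, or 3.78-fold (adjusted p = 3.6e-04), by 1.30 ± 0.31 at TNF 6 d (adjusted p = 0.00996) and by 1.15 ± 0.31 at Dex 6 d (adjusted p = 0.0263). The TNF 6 d call was lost without control array 1 (adjusted p = 0.0548). Its control mean of 5.16 lies under the filter level, as do those of Birc5, Mki67, Ccnb2, Kif23, Tpx2 and Aurka, where changes from control may be understated.

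Mcm6 read 6.63, 6.63 and 7.35 in control, 8.15, 7.90 and 7.97 at TNF 24 h, and 7.53, 8.28 and 7.71 at Dex 6 d. Its TNF 6 d levels were 7.68, 7.04 and 7.49, which overlap control. Mcm6 rose by 1.14 ± 0.23 at TNF 24 h (adjusted p = 0.00249) and by 0.97 ± 0.23 at Dex 6 d (adjusted p = 0.0099). At TNF 6 d it differed by 0.53 (adjusted p = 0.11), and by 0.71 with 20 arrays (adjusted p = 0.0262).

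Mcm3 read 5.93, 6.33 and 6.72 in control, 7.59, 7.32 and 7.58 at TNF 24 h, and 6.66, 5.33 and 6.61 at TNF 6 d. It rose at TNF 24 h by 1.17 ± 0.28 (adjusted p = 0.0108), a change that was 0.97 and missed the threshold without control array 1 (adjusted p = 0.0755). Probe sets of the same gene disagreed in size: at TNF 24 h those of Mcm3 gave 0.14 to 1.17, those of Mcm5 0.14 to 1.92 and those of Mcm6 0.23 to 1.68. Mcm5 is read by a probe set whose suffix marks possible cross-hybridisation with other transcripts.

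With 20 arrays, Mcm2, Rrm1 and Rrm2 were called higher as well at TNF 24 h, by 0.61 (adjusted p = 7.9e-04), 0.52 (adjusted p = 0.0278) and 1.07 (adjusted p = 0.0341). Rrm1 and Rrm2 form ribonucleotide reductase, which supplies deoxynucleotides. Rrm2 read 5.36, 5.46 and 5.62 in control and 6.41, 6.47 and 6.77 at TNF 24 h. Its arrays at TNF 6 d read 6.50, 4.10 and 7.07, with array 2 far below the others. At TNF 6 d, 4 replication genes were called with 20 arrays: Mcm2 (0.51), Mcm5 (1.41), Mcm6 and Rrm2 (1.30). Pcna, the sliding clamp of the polymerases, Mcm4 and Mcm7 differed from control by 0.06, 0.21 and -0.02 at TNF 24 h, and none of the 3 was called over either set of arrays. Tyms, which makes thymidylate, lay between 3.53 and 4.12 on all arrays but array 2 of TNF 6 d, where it read 5.45.

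At 6 d of Dex, 5 of 32 members were called higher (15.6%) and none lower, against 8.30% of all genes (3.22% higher). They were Cdkn1a, Ccnd1, Mcm5, Mcm6 and Top2a. With 20 arrays 12 were called higher and 1 lower (40.6%), against 24.0% of all genes (10.4% higher), and the additions among the replication genes were Mcm2 (0.59, adjusted p = 0.00117) and Mcm4 (0.48, adjusted p = 0.0113). After cyclic loess 7 were called higher and 1 lower, against 591 and 932 of 12156 genes.

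The Dex 6 d count moved with single arrays. Without array 2 of Dex 6 d, 1 member, Cdkn1a, was called (change 1.52, adjusted p = 5.0e-04), and Mcm5 differed by 0.71 (adjusted p = 0.17), Mcm6 by 0.75 (0.0727) and Top2a by 0.89 (0.196). Without both this array and array 2 of TNF 6 d, 8 members were called, 6 higher and 2 lower, among them Cdkn1a, Ccnd1, Mcm6 (adjusted p = 0.00904) and Top2a (7.0e-04) but not Mcm5 (0.0533). Without control array 1, 1 member was called, and without control array 2, 3 members. Over all 12156 genes, 748 were called without array 2 of Dex 6 d and 2403 without both arrays 2. Without control array 1 or 2 the counts were 692 and 698.

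Top2a, which encodes the topoisomerase that untangles replicated DNA before mitosis, read 5.77, 6.36 and 6.13 in control and 6.88, 8.0 and 7.09 at Dex 6 d, without overlap. Its other levels were 5.92, 5.95 and 5.87 at Dex 2 h, 6.49, 6.41 and 6.61 at Dex 24 h, 6.02, 6.43 and 5.79 at TNF 2 h, 6.66, 6.73 and 6.81 at TNF 24 h, and 7.20, 5.63 and 7.39 at TNF 6 d. It rose by 1.23 ± 0.34 at Dex 6 d (adjusted p = 0.0307). With 20 arrays it also rose at TNF 24 h by 0.65 (adjusted p = 0.0307) and at TNF 6 d by 1.21 (adjusted p = 9.9e-04). The other probe sets of Top2a differed by -0.21 and 0.05 at Dex 6 d, and with the mean of all its probe sets the change was 0.36 (adjusted p = 0.0822). The Top2a call at Dex 6 d was also lost without control array 1 (0.144), control array 3 (0.076) or Dex 6 d array 3 (0.0518).

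At 6 d of TNF, 5 of the 15 mitosis genes tested were called higher and none lower: Birc5, Mki67, Bub1b, Ccna2 and Kif23. With 20 arrays Bub1b and Kif23 were not called. In that comparison 9 of 32 members were called (28.1%), 7 higher and 2 lower, against 15.2% of all genes (4.52% higher). With only the 2 groups compared in the fit, 0 of 32 members were called, against 29 of 12156 genes. Over 20 arrays 16 members were called (50%), 13 higher and 3 lower, against 20.5% of all genes (10.5% higher), and 8 of the 15 mitosis genes were among the higher ones. The median change of the 15 mitosis genes was 0.65, or 0.59 with 20 arrays, while the median over all genes tested was -0.23, or -0.05 with 20 arrays. Mki67 passed the filter only through arrays in which it is high, the 3 arrays of TNF 6 d and array 2 of Dex 6 d, so its passing is no independent support. Aurka passed on 4 arrays, arrays 1 and 3 of TNF 6 d among them. Both genes stay in the counts and medians of the 15 mitosis genes.

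Birc5, which encodes survivin, a subunit of the chromosomal passenger complex, read 5.19, 5.19 and 4.83 in control. After TNF it read 5.13, 5.46 and 4.80 at 2 h, 5.86, 5.97 and 6.26 at 24 h, and 6.39, 6.27 and 6.75 at 6 d. After Dex it read 5.38, 5.06 and 4.83 at 2 h, 5.54, 5.67 and 5.80 at 24 h, and 5.52, 6.79 and 5.25 at 6 d. The arrays of Dex 24 h, Dex 6 d, TNF 24 h and TNF 6 d lay above control without overlap, those of TNF 6 d above those of TNF 24 h, and array 2 of Dex 6 d was the highest of all.

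Birc5 rose by 1.40 ± 0.29 at TNF 6 d, or 2.65-fold (adjusted p = 0.00358), and by 1.51 with 20 arrays. It rose at TNF 24 h by 0.96 ± 0.29 (adjusted p = 0.0436), a call that was lost when any control array (adjusted p of 0.0849 to 0.17) or any TNF 24 h array (0.0716 to 0.18) was left out. With 20 arrays that call held (adjusted p = 0.0127). Its promoter window, shown above, holds no CHR letters.

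Mki67, the gene of the proliferation antigen Ki-67, read 4.81, 4.82 and 4.58 in control and 5.64, 6.30 and 5.54 at TNF 6 d. It rose by 1.09 ± 0.25 (adjusted p = 0.00739), or 0.85 with 20 arrays (adjusted p = 0.0158). Mki67 passed the filter on 4 arrays only, the 3 of TNF 6 d among them, so its being tested depended on this rise. Ccna2 (cyclin A2), which acts in S phase and G2, read 6.10, 6.40 and 6.06 in control and 7.10, 7.04 and 7.24 at TNF 6 d. It rose by 0.94 ± 0.23 (adjusted p = 0.0119), or 0.99 with 20 arrays, and its call was lost without control array 3 (adjusted p = 0.0507). In both genes the 3 TNF 6 d arrays lay above control, and array 2 did not decide the direction.

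Bub1b, a spindle checkpoint kinase gene, read 5.81, 5.50 and 5.27 in control and 6.12, 7.50 and 5.99 at TNF 6 d, with array 2 far above the others. Its change was 1.01 ± 0.30 (adjusted p = 0.0329), and 0.53 without that array (adjusted p = 0.0929). Other probe sets of Bub1b differed by 0.26 and -0.42. Kif23, a kinesin of the midbody, read 5.38, 5.18 and 5.15 in control and 5.81, 6.00 and 5.83 at TNF 6 d, with a change of 0.65 (adjusted p = 0.0438), or 0.59 with 20 arrays (adjusted p = 0.07). Leaving out any control array also ended the Kif23 call (adjusted p of 0.0684 to 0.122), and leaving out control array 2 or 3 ended that of Bub1b (0.0878 and 0.118).

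The mitosis genes that were called at TNF 6 d only with 20 arrays were Ccnb2, Top2a, Cdc20, Cenpa and Tpx2. Ccnb2 (cyclin B2), a partner of CDK1, read 5.21, 5.29 and 5.26 in control and 6.72, 5.26 and 6.64 at TNF 6 d, so array 2 lay at control while the others lay above it. Its change with 20 arrays was 1.43 (adjusted p = 2.5e-04). Cdc20, an activator of the anaphase-promoting complex, rose by 0.55 (adjusted p = 0.00797). Cenpa, the centromeric histone, rose by 0.81 (adjusted p = 0.0454), and the spindle gene Tpx2 by 0.78 (adjusted p = 8.2e-04).

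Cdk1, the kinase that drives entry into mitosis, read 8.60, 8.64 and 8.28 in control and 8.86, 6.17 and 8.94 at TNF 6 d, a difference of 0.39 with 20 arrays (adjusted p = 0.0808). Nusap1, which bundles spindle microtubules, differed by 0.59 (adjusted p = 0.0909), Aurka, a centrosomal kinase gene, by 0.19 (0.399), Plk1, a mitotic kinase gene, by 0.14 (0.533) and Ube2c, the ubiquitin-conjugating partner of the anaphase-promoting complex, by -0.01 (0.991). At TNF 24 h Ube2c fell by 0.65 with 20 arrays (adjusted p = 0.0071), while Birc5 was higher at that time. At Dex 6 d, Birc5 (0.79), Mki67 (0.66) and Ccnb2 (0.62) were called with 20 arrays only (adjusted p of 0.0416, 0.0323 and 0.0471), and each had its highest level on array 2.

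The untested mitosis genes lay low throughout. Apart from array 2 of TNF 6 d, Bub1 lay between 4.15 and 5.11, Aurkb between 3.68 and 4.57, Kif11 between 4.54 and 5.13, Cenpe between 4.23 and 5.70, and Kif20a at or below 5.42. On array 2 of TNF 6 d, Bub1 read 7.01, Cenpe 6.12, Kif11 5.64 and Aurkb 4.71. That array was thus high for some dim mitosis genes and low for Cdk1, Ube2c and several replication genes.

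**Figure D3:**
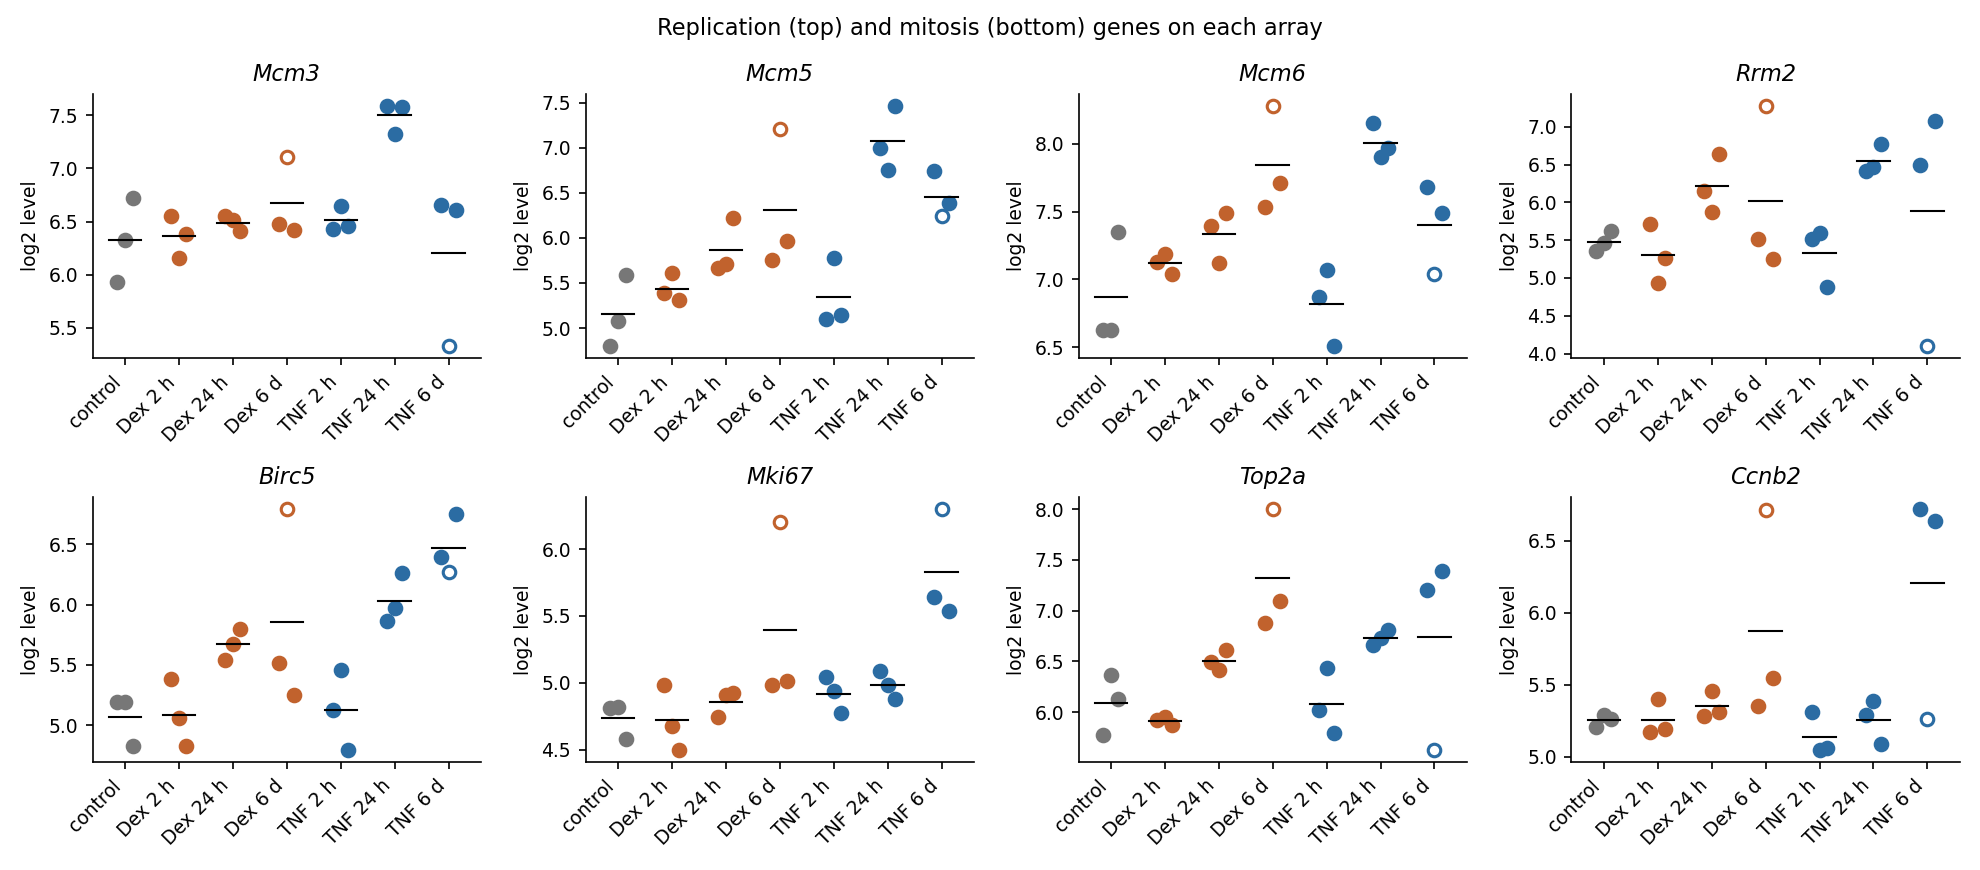
Log2 level (vertical axes, each with its own range) of 4 replication genes (top) and 4 mitosis genes (bottom) on each array by group, with a black line at the group mean and open circles for arrays 2 of Dex 6 d and TNF 6 d. Mcm3, Mcm5 and Mcm6 have their highest group mean at TNF 24 h, Birc5, Mki67 and Ccnb2 at TNF 6 d, and the open circle of Dex 6 d lies above the other Dex arrays in all 8 genes.

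Markers of undifferentiated fibroblasts differed between groups, and not all in the same direction. The mean level of 11 preadipocyte and fibroblast markers was 10.60 to 10.82 in control, 10.89 to 11.04 at TNF 24 h and 10.97 to 11.46 at TNF 6 d, and 9.70 to 9.97 at Dex 6 d. Of the 10 markers tested 3 were called higher at TNF 24 h and TNF 6 d (Acta2, Pdgfra and Pdgfrb), and 6 were called lower at Dex 6 d. Over all genes tested 5.41% and 4.52% were called higher at these times of TNF, and 617 of 12156 lower at Dex 6 d. At TNF 24 h 5 of the 10 were above control, with a median change of -0.03, at TNF 6 d 8 were, with a median of 0.32, and at Dex 6 d the median was -1.02. With 20 arrays 6 were called higher at TNF 6 d, against 10.5% of all genes. Acta2 rose by 2.27 at TNF 6 d (adjusted p = 3.5e-06). The 8 adipocyte markers had a mean of 11.58 to 11.68 in control, 10.54 to 10.90 at TNF 24 h and 10.45 to 11.00 at TNF 6 d. All 7 tested had a lower mean at TNF 6 d than in control, and 5 were called lower, against 1301 of 12156 genes. Array 2 was far lower than the others in Pparg, at 9.97 against 12.00 and 12.02. In such bulk samples fewer cells of a type and less RNA per cell cannot be told apart, and the part of these markers in the replication and mitosis changes was not tested. The mean of 6 macrophage markers lay between 4.65 and 5.37 on all arrays, and of the 3 tested Cd68 rose by 1.57 at TNF 24 h (adjusted p = 0.00127).

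Dex and TNF were then compared directly at each time. At 2 h, 2 of 32 members were called (6.25%), both higher under Dex, against 5.97% of all genes (2.36% higher). With 20 arrays 3 were higher and 1 lower, against 14.8%. Ccne2 was higher under Dex by 1.33 ± 0.21 (adjusted p = 3.2e-04), and all 3 Dex arrays lay above all 3 TNF arrays. Cdkn1a was higher under Dex by 0.89 ± 0.21 (adjusted p = 0.0097). This call was lost without Dex 2 h array 1 (0.0824) or 2 (0.0503), without TNF 2 h array 3 (0.0844), and after cyclic loess (0.0917).

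At 24 h, 5 of 32 members were called (15.6%), against 13.5% of all genes (5.89% higher under Dex), with Cdkn1a and Ccne2 higher under Dex and Ccnd1, Mcm3 and Mcm5 higher under TNF. Cdkn1a was 1.49 ± 0.21 higher under Dex (adjusted p = 4.1e-05) and Ccne2 0.95 ± 0.21 (adjusted p = 0.00441). Ccnd1 was lower under Dex by -1.28 ± 0.21 (adjusted p = 2.4e-04), Mcm5 by -1.21 ± 0.31 (adjusted p = 0.0128) and Mcm3 2-fold (adjusted p = 0.0204). Without Dex 24 h array 1, Dex 24 h array 2 or TNF 24 h array 3, 3 members were called in each case, since both Mcm3 and Mcm5 missed the threshold (adjusted p of 0.0533 to 0.0813). Over all 12156 genes 1172, 1186 and 1259 were called in these settings. Mcm3 also missed it without Dex 24 h array 3 (0.0713) or TNF 24 h array 1 (0.0716). With 20 arrays 6 members were called higher under Dex and 4 lower, against 33.0% of all genes, and the additions were Mcm6 (-0.67, adjusted p = 0.0118), Ccnd3 (0.64), Cdkn2c (0.71), Ube2c (0.73) and Nusap1 (0.58).

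At 6 d, 4 of 32 members were called (12.5%), against 23.7% of all genes (15.9% higher), all higher under Dex: Cdkn1a by 2.12 ± 0.21 (adjusted p = 8.4e-07), Ccne2 by 1.72 ± 0.21 (1.5e-05), Cdkn1b by 1.44 ± 0.46 (0.0298) and Mcm7 by 0.95 ± 0.22 (0.00495). With only these 2 groups in the fit, 2 members were called higher under Dex and 0 lower, against 100 and 121 of 12156 genes. The split differed between settings. With 20 arrays 4 were higher and 7 lower under Dex, against 30.1% of all genes. With 19 arrays 4 were higher and 15 lower, against 1464 higher and 1912 lower of 12156 genes. Without array 2 of Dex 6 d alone 3 were higher and 6 lower, after cyclic loess 5 and 7, and with no filter or with the replicate block 4 and 2. Over all genes these counts were 1081 and 786 without that array and 1448 and 1825 after cyclic loess. They were 1630 and 941 of 18194 with no filter, and 1922 and 978 with the replicate block. The Cdkn1b difference was 0.55 with 20 arrays, without array 2 of TNF 6 d (adjusted p = 0.0164). Over 21 arrays its call was lost when any Dex 6 d array was left out (0.0574 to 0.0829). Among the members lower under Dex with 20 arrays were 4 mitosis genes, Ccnb2 (-0.81), Cenpa (-0.78), Cdk1 (-0.68) and Tpx2 (-0.63), with adjusted p between 0.00191 and 0.04, and the cyclins Ccnd1 (-0.60) and Ccnd2 (-0.72).

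Each gene was also tested within TNF, from 24 h to 6 d. Over 21 arrays Mcm3 fell by 1.29 ± 0.28 (adjusted p = 0.00987) and Bub1b rose by 1.08 ± 0.30 (adjusted p = 0.0407), which is 2 of 32 members (6.25%), against 5.99% of all genes (1.21% higher). With 20 arrays 8 members rose and 2 fell (31.2%), against 9.20% of all genes (4.10% higher). After cyclic loess 4 rose and 1 fell, against 421 and 639 of 12156 genes. With only these 2 groups in the fit, 0 of 32 members were called, against 2 of 12156 genes. With 20 arrays 6 of the 15 mitosis genes rose and none fell, among them Ccnb2 by 1.42 (adjusted p = 6.0e-04), Cenpa by 0.97 (0.0316), Cdc20 by 0.56 (0.0141) and Aurka by 0.54 (0.0232). Aurka lay above the filter level on 4 arrays only, arrays 1 and 3 of TNF 6 d among them, so its passing is no independent support. Of the 9 replication genes, Mcm3 fell by 0.86 (0.00904) and none rose.

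The median change from TNF 24 h to 6 d with 20 arrays was 0.55 in the mitosis genes and -0.10 in the replication genes, with -0.02 over all genes tested. Cdkn1a also fell by 0.77 in that interval (adjusted p = 0.0167), and Cdkn2c rose by 0.59 (8.6e-04). Birc5 (0.54, adjusted p = 0.325) and Mcm5 (-0.51, 0.413) were not called between these times. The Bub1b rise was lost without array 2 of TNF 6 d (0.60, 0.0922) and without any TNF 24 h array (0.0903 to 0.112).

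From Dex 24 h to Dex 6 d no member was called by limma over 21 arrays, against 0.683% of all genes (0.247% higher), and 4 had an unadjusted p under 0.05 (Ccnd1, Mki67, Top2a and Mcm6). With 20 arrays 3 members were called (9.38%), against 4.50% of all genes. These were Ccnd1, which rose by 0.70 (adjusted p = 0.00691), Top2a, which rose by 0.82 (0.0306), and Cdkn2c, which fell by 0.47 (0.00467).

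**Figure D4:**
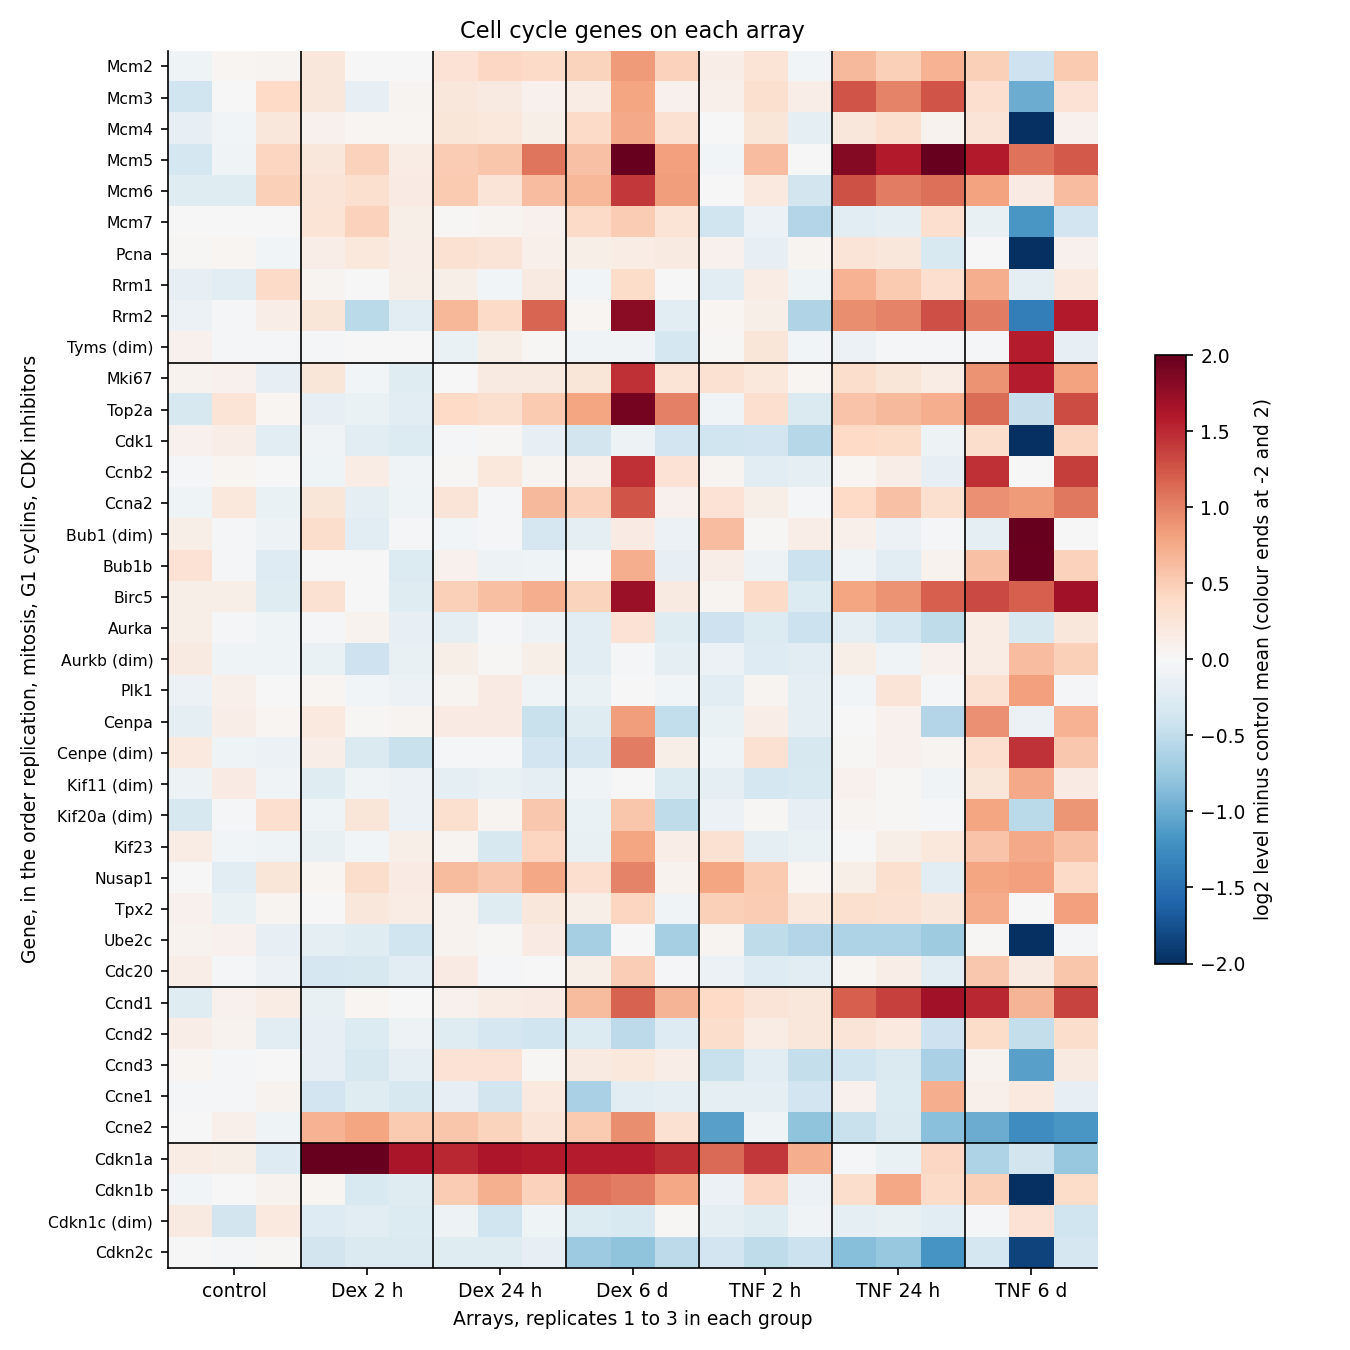
Log2 level minus control mean of the 39 genes (rows, by role) on the 21 arrays (columns, replicates 1 to 3 in each group), in red above and blue below control with colours ending at -2 and 2; untested genes are marked dim. The Cdkn1a row is red in all Dex groups, Mcm3, Mcm5 and Mcm6 are red at TNF 24 h, and array 2 of TNF 6 d differs from its neighbours in many rows.

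Other genes of the same pathway, from lists that were chosen with earlier results of these data known, were tested in the same fit. Of 37 other replication genes 35 were tested, and 1, 2 and 2 were called higher at Dex 2 h, 24 h and 6 d, 0, 4 and 2 at the same times of TNF. Called lower were 1, 1 and 1 under Dex and 1, 1 and 4 under TNF. With 20 arrays the higher counts were 2, 3 and 5 under Dex and 0, 11 and 4 under TNF, and the lower counts 1, 1 and 4 and 3, 3 and 3. For this list and those that follow, the shares called over all genes were 2.48%, 4.18% and 8.30% at the times of Dex and 3.82%, 8.69% and 15.2% at those of TNF, or 7.12%, 13.2%, 24.0%, 10.7%, 25.6% and 20.5% with 20 arrays. Cdc45, a partner of the MCM helicase, rose by 0.90, 1.37 and 0.78 under Dex (adjusted p of 0.0134, 2.1e-04 and 0.016) and fell by 0.80 at TNF 6 d (0.0113), with a change of -0.53 with 20 arrays (0.0201). Cdc6, which loads the helicase, fell by 1.02, 0.92 and 1.23 under Dex (0.00615, 0.0109 and 4.5e-04) and by 0.99 at TNF 2 h (0.00509), and was 2-fold lower at TNF 6 d (0.00329).

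Helicase loading also involves Cdt1, which rose by 1.12 at Dex 6 d (adjusted p = 0.00153), and its inhibitor geminin (Gmnn), which rose by 0.76 at Dex 24 h (0.00882). The maintenance methylation factor Uhrf1 lay above the filter level on 3 arrays only, arrays 1 and 3 of TNF 24 h and array 2 of Dex 6 d, with a control mean of 3.99, so its size is uncertain and its passing the filter supports nothing. At TNF 24 h Uhrf1 differed by 1.82 (adjusted p = 6.8e-04), the DNA ligase gene Lig1 rose by 0.71 (0.028), and Mcm10 was lower by -0.73 (0.029). At TNF 6 d Uhrf1 differed by 1.20 (0.0174), and Gins1, a subunit that joins Cdc45 at the helicase, differed by -0.87 (0.0439), or by -0.38 without array 2 (0.102). The medians of this list were 0.05 at TNF 24 h and -0.26 at TNF 6 d, or -0.04 with 20 arrays, near those of all genes tested.

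Of 40 other mitosis genes only 24 passed the filter, and 0, 0 and 1 were called higher under Dex and 0, 2 and 1 under TNF. Called lower were 1, 0 and 1 and 1, 1 and 1. With 20 arrays the higher counts were 1, 0 and 3 and 1, 3 and 4, and the lower counts 1, 0 and 2 and 1, 1 and 1. The medians of this list were 0.17 at TNF 24 h and 0.21 at TNF 6 d, or 0.32 with 20 arrays at 6 d. From TNF 24 h to 6 d the median was 0.08. Over 21 arrays the 15 mitosis members had 0.07, 0.65 and 0.44 in these comparisons, so the later rise was smaller in this list. The kinase gene Melk was 4.47, 4.86 and 4.66 in control and 8.68, 8.65 and 8.05 at TNF 24 h, a rise of 3.80 ± 0.29 (adjusted p = 4.7e-08). Its control level lies below the filter level and it passed on 6 arrays, so the size of the change is uncertain and may be understated. At TNF 6 d Melk read 5.41, 4.31 and 5.35, so the high level was seen at 24 h. Kif22, a chromosome motor gene, rose by 1.04 at TNF 24 h (0.00548), the condensin gene Smc4 by 1.27 at TNF 6 d (0.00429) and the securin gene Pttg1 by 0.61 at Dex 6 d (0.0134). Cdc25b, a phosphatase that activates CDK1, fell by 1.22 at Dex 2 h (0.00887) and by 1.02 at Dex 6 d (0.0144), and under TNF by 1.20, 0.94 and 0.79 at the 3 times (0.00663, 0.0237 and 0.0452), the last with groups that overlap.

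Of 33 other regulators 28 were tested, and 2, 1 and 1 were called higher under Dex and 2, 2 and 1 under TNF. With 20 arrays these counts were 2, 2 and 4 and 5, 6 and 4. Myc, a growth-promoting transcription factor, rose by 1.24, 0.86 and 1.70 at the 3 times of Dex (adjusted p of 1.7e-04, 0.00518 and 2.2e-06), beside the rise of Cdkn1a in the same groups. The mitosis-restraining kinase gene Wee1 rose by 1.03 at Dex 2 h (0.0013). Under TNF, the CDK inhibitor gene Cdkn2b rose by 1.12 at 2 h (0.0163) and 0.97 at 24 h (0.0231), Lin9, a MuvB subunit, by 0.75 at 2 h (0.032), and Cdk6 by 0.86 at 24 h (0.00672) and 1.16 at 6 d (7.6e-04).

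Over 21 arrays 3 regulators were called lower at TNF 6 d and none in the other comparisons with control, whereas 20 arrays gave 1, 1 and 3 under Dex and 2, 4 and 3 under TNF. At TNF 6 d Rb1, which encodes the retinoblastoma protein that holds E2F factors, was 2-fold lower (adjusted p = 0.00454), with a change of -0.69 with 20 arrays (0.00106). The related Rbl1 was lower by -1.20 (0.0405), or -0.48 with 20 arrays (0.0378), and E2f4, a repressive E2F factor, by -0.51 (0.012), or -0.45 with 20 arrays (0.0192).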

How the data were processed

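Expression was measured on 21 Affymetrix arrays of 3T3-L1 cells, 3 in each of 7 groups. The authors deposited log2 values of 45101 probe sets, made with RMA (background correction, quantile normalisation and summary of probes) per the submitters' processing notes, whose version is not given in the sources used here. RMA forces equal distributions on the arrays, which can hide global shifts. Probe sets with 1 gene symbol (34958) were used, 932 with several and 9211 with none were left out, and 34754 symbols were updated by Entrez identifier. Of the members, 4 are read by probe sets with the suffix x_at and 4 with s_at, which can hybridise with other transcripts.

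Groups were compared with limma 3.58.1 in R 4.3.3 (a mean per group over all 21 arrays, eBayes with trend, two-sided, Benjamini-Hochberg over 12156 genes, adjusted p below 0.05). The test was checked on simulated data. The members, role lists and pathway lists were chosen with earlier results of these data known. The text accounts for every member. Levels on the arrays are given for members called with groups that do not overlap (up to 4 per role and comparison by size) and for the G1 cyclins and CDK inhibitors. For Mcm3, Mcm6, Mki67, Ccna2, Bub1b, Kif23 and Ccnd3 only some groups are given, and for Ccnd2, Ccne1 and Cdkn1c only the range. Outside the members the text names up to 3 called genes per list and comparison. A few levels outside this rule, such as those of Ccnb2, Rrm2 and Cdk1, were chosen after their values were seen. No batch is given in the labels. Same-numbered arrays deviated together (all correlations over 0.1) only between Dex 24 h and control (0.233 to 0.447) and between Dex 24 h and TNF 24 h (0.207 to 0.27). Alternatives tried were no filter, the mean of all probe sets, cyclic loess, 20 or 19 arrays, a replicate block, only the groups compared, and leaving out each replicate. The number of arrays limits the precision. Promoters are those of RefSeq.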

Additional observations from a re-analysis of the deposited data

Results flagged for a closer look

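Changes between 24 h and 6 d of TNF were tested directly by limma over all genes, and 2 of 32 members passed. Their share of 6.25% was near that of all genes, 5.99%. Mcm3 differed by -1.29 (adjusted p = 0.00987), or by -0.86 with 20 arrays (adjusted p = 0.00904). Bub1b differed by 1.08 (adjusted p = 0.0407), or by 0.60 without array 2 of TNF 6 d (adjusted p = 0.0922), where its level of 7.50 is the highest of all arrays. The part of RNA quality on that array was not tested.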

How the results depend on the processing

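Of 36 gene changes called over 21 arrays, 12 kept their call under every other setting and 0 reversed. Counts of members called are given in the order Dex 2 h, Dex 24 h, Dex 6 d, TNF 2 h, TNF 24 h and TNF 6 d against control, Dex against TNF at 2 h, 24 h and 6 d, and 6 d against 24 h of Dex and of TNF. They were 1, 1, 5, 1, 6, 9, 2, 5, 4, 0 and 2 over 21 arrays. They were 2, 2, 13, 5, 13, 16, 4, 10, 11, 3 and 10 with 20 arrays, and 3, 7, 8, 7, 15, 19, 5, 11, 19, 3 and 13 with 19. With only the groups compared they were 3, 9, 11, 2, 10, 0, 4, 11, 2, 2 and 0, where limma gave an unadjusted p under 0.05 for 9 members at TNF 6 d and 8 for TNF 6 d against 24 h. With the replicate block they were 1, 1, 5, 1, 6, 9, 2, 5, 6, 0 and 3, and 1 of the 36 calls was lost (Kif23 at TNF 6 d, limma adjusted p = 0.0552). Cyclic loess gave 8 at Dex 6 d, 2 at TNF 2 h, 15 at TNF 6 d, 9 and 12 for Dex against TNF at 24 h and 6 d, and 1 and 5 for 6 d against 24 h of Dex and TNF. It raised the median of tested genes by 0.933 on array 2 of TNF 6 d. The mean of all probe sets, with 25 members tested, gave 3 at Dex 6 d and 0 at TNF 2 h (3 at an unadjusted p under 0.05 in limma), and no filter gave 1 for TNF 6 d against 24 h. The mean level of replication genes at TNF 24 h was 0.43 with all probe sets and 0.74 with tested members alone, and that of mitosis genes at Dex 24 h was 0.15 with tested members alone. Leaving out 1 replicate gave, in the same order, 1 to 1, 1 to 1, 1 to 6, 1 to 2, 3 to 5, 6 to 16, 1 to 2, 3 to 5, 3 to 11, 0 to 0 (1 to 6 at an unadjusted p under 0.05 in limma) and 1 to 10 members. Over all 12156 genes, in the same order, 894, 1698, 2403, 1394, 3205, 2630, 1890, 4170, 3376, 402 and 1194 were called with 19 arrays. With only the groups compared 874, 1860, 2421, 844, 1790, 29, 1623, 3368, 221, 596 and 2 were called. With the replicate block 298, 514, 1019, 476, 1077, 1845, 708, 1657, 2900, 95 and 790 were called, and after cyclic loess 472, 785, 1523, 693, 1642, 2256, 1015, 2425, 3273, 160 and 1060. Leaving out 1 replicate gave 208 to 238, 297 to 362, 682 to 762, 334 to 404, 755 to 985, 1018 to 4596, 561 to 633, 1172 to 1431, 1814 to 4954, 34 to 55 and 387 to 3826 genes. The mean of all probe sets gave 1184 of 11208 genes at Dex 6 d and 607 at TNF 2 h. No filter gave 591 of 18194 genes for TNF 6 d against 24 h. Except where stated, the cause of these differences was not tested. Levels under the filter limit what can be seen of 7 dim members.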
